A study of Thermothelomyces thermophilus ATCC 42464 with 24 samples.

Results

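The comparison described here sets the libraries labelled Δcre-1 against those labelled Δgrf-1, Δgrf-2 and Δgrf-3 in Myceliophthora thermophila, a thermophilic filamentous fungus that degrades plant biomass. It uses 7 of the 24 labelled RNA-seq samples, chosen by label alone: 2 libraries of Δcre-1 and 5 of the pooled Δgrf strains, of which 2 are Δgrf-1, 1 is Δgrf-2 (replicate 2) and 2 are Δgrf-3. All 4 strains were made in ATCC 42464 by replacing the coding region of one gene with a marker cassette through Cas9, and mycelium of every strain was taken from 2% glucose medium after 24 h at 45 °C. No wild-type library enters, so each value below says how Δcre-1 stood relative to Δgrf and nothing of either relative to the wild type. The labels do not say how many clones stand behind a strain, nor which libraries come from separate cultures. The p-values therefore measure only the spread between these samples, which within a strain may be technical. In the comparison with pooled Δgrf, libraries of different Δgrf strains were treated as replicates of the same group. Differences between the Δgrf strains thus enter that spread, and libraries of the same strain were counted as independent.

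In filamentous fungi the zinc finger protein CRE-1 (CreA in Aspergillus) acts in carbon catabolite repression, by which genes for the use of other carbon sources are kept low while glucose is at hand. Its known targets in Neurospora and Aspergillus include transporters for sugars, enzymes that act on starch and plant cell walls, and regulators of those enzymes. Grf-1, Grf-2 and Grf-3 are transcription factors that the study groups with Cre-1 as growth regulatory factors, and the comparison sets the strain named for the catabolite repressor against the strains named for the other members of that group on the same sugar.

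The guides that cut the genes are shown because the level of each target gene is the check on the labels. They are the 20-base spacers in the study's primers, read 5′ to 3′, with the 10 bases nearest the PAM side in capitals.
cre-1 guide: gtgttggagcAACTCCGCTT
grf-1 guide: gatcggaacaTCACATCCAA
grf-2 guide: gacaagagacACGGATCCAA
grf-3 guide: gtctgccccgTGTCCACTAC

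The targeted genes went against their labels. cre-1 (Mycth_2310085) stood at 2156 and 2248 CPM (the gene's counts relative to the TMM-scaled library size) in the libraries labelled Δcre-1, against 503 and 499 CPM in Δgrf-1, 596 CPM in Δgrf-2 and 506 and 515 CPM in Δgrf-3. Both Δcre-1 libraries lay above all 5 others, and the gene was called higher where it should have been absent (log2 fold change 2.07 ± 0.10 SE, adjusted p = 7.8e-06). grf-1 (Mycth_37566) had 73.9 and 80.8 CPM in Δcre-1, against 188 and 184 CPM in the Δgrf-1 libraries and 83.6 to 110.4 CPM in the other Δgrf libraries. grf-3 (Mycth_2309668) had 42.2 and 40.0 CPM in Δcre-1, against 85.9 and 62.1 CPM in the Δgrf-3 libraries and 34.8 to 38.0 CPM in the others. grf-2 (Mycth_2089183) had 100.1 and 96.7 CPM in Δcre-1, against 104 CPM in the Δgrf-2 library and 71.4 to 105 CPM in the others. No targeted gene was thus lowest in the libraries that carry its name, and none of the 3 grf genes was called between Δcre-1 and pooled Δgrf. Against the Δgrf-1 libraries alone grf-1 was called lower in Δcre-1 (log2 -1.27, adjusted p = 8.7e-04), as it was against pooled Δgrf with library totals only (log2 -1.31) or without both Δgrf-3 libraries (log2 -1.03, adjusted p = 0.015), and against Δgrf-3 alone grf-3 stood at log2 -0.85 (adjusted p = 0.014), under the fold change asked for. Counts are given per gene, so which stretch of a gene the reads cover was not tested. Strain names below stand for the labels only, and every direction is that of the library labelled Δcre-1 relative to the libraries labelled Δgrf.

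Totals ran from 19317708 to 22376871 counts, 8608 to 8835 genes had at least 1 count, and 3 counts, taken as the floor, stood for 0.120 to 0.191 CPM, which covers counting error only. The 10 genes with the most counts took 6.77% and 6.81% of the Δcre-1 libraries, against 4.66% to 5.37% of the Δgrf libraries, and the top 100 took 27.1% and 27.3%, against 19.1% to 20.7%. Between the Δcre-1 pair 223 genes were at least 2-fold apart, and between the Δgrf-1 pair 79. The Δgrf-3 pair stood 1095 genes apart: its replicate 1 lay nearer to Δgrf-1 (350 and 319 genes), and its replicate 2 nearer to the Δgrf-2 library (465 genes). Any Δcre-1 library was 2235 to 2603 genes away from any Δgrf library, farther than any Δgrf libraries lay from each other. Replicates differed beyond counting noise in each strain with a pair, with a chi-square over its degrees of freedom of 3.99 for Δcre-1, 3.15 for Δgrf-1 and 268 for Δgrf-3.

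**Figure D1:**
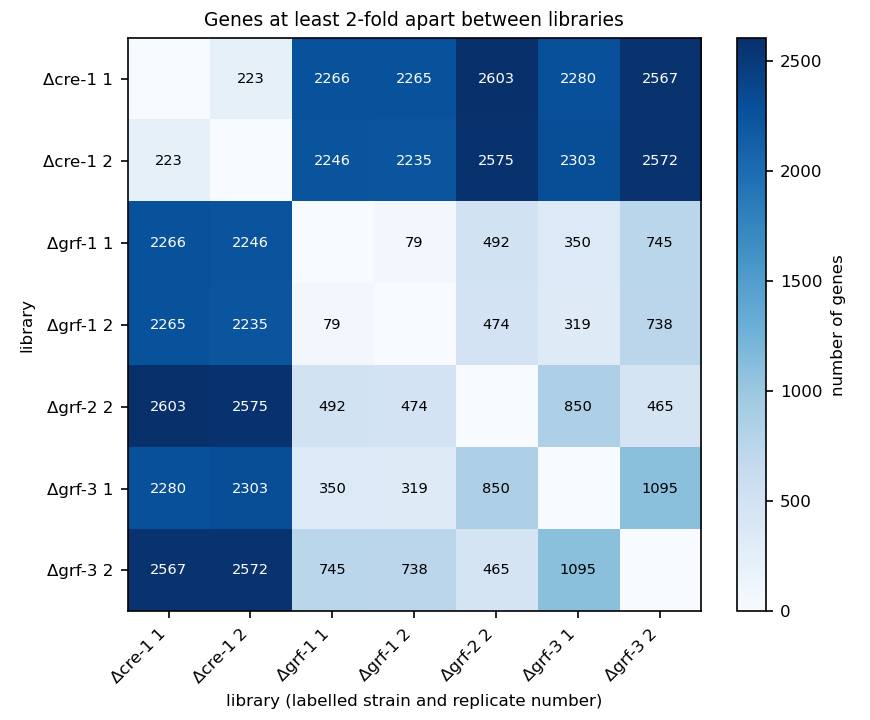
Number of genes at least 2-fold apart (of 8440 tested) between each pair of the 7 libraries, on rows and columns by labelled strain and replicate number. The 2 Δcre-1 libraries form a block of their own (223 genes apart, and 2235 to 2603 from Δgrf), while the Δgrf-3 pair is split by 1095 genes.

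Of 8440 genes tested, 899 (10.7%) were called higher in Δcre-1 than in pooled Δgrf and 1193 (14.1%) lower, a call being a Benjamini-Hochberg adjusted p below 0.05 and a fold change of at least 2 in edgeR's quasi-likelihood test. Both Δcre-1 libraries lay above all 5 Δgrf libraries at 32.3% of tested genes and below all 5 at 34.4%, so a lack of overlap alone sets few genes apart. All 899 genes called higher and 1186 of the 1193 called lower lacked overlap. Where a lack of overlap is given below for a called gene, it therefore adds no support to the call. A gap of at least 2-fold between the nearest libraries was rarer, with 6.74% of genes above and 7.46% below, and 569 of the genes called higher and 628 of those called lower had it. The split between directions rests on the scaling: with library totals only, 427 genes were higher and 2482 lower (14.7% of calls were higher, against 43%), and the upper quartile gave 654 and 1563 (29.5%). The median log2 fold change of all genes was -0.08 with TMM, -0.29 with the upper quartile and -0.62 with library totals. Changes below are relative to these medians, and no spike-in that could fix the zero is described in the sources used here. Counts of list members called below stand beside these shares of all genes, 10.7% higher and 14.1% lower (427 and 2482 of 8440 with library totals only), and nothing particular to a list is read from them. RNA from fewer hyphae of a kind and less RNA per hypha cannot be told apart in such bulk samples.

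The calls were also counted by the mean level in the 5 Δgrf libraries, a split added after seeing the data, since a mean over all 7 libraries lifts genes such as gla1 into the top class through Δcre-1 itself. Among the 103 genes with at least 1000 CPM in Δgrf, 19.4% were called higher and 9.71% lower, with a median log2 fold change of 0.47. Among the 1776 genes under 10 CPM in Δgrf, 11.3% were called higher and 31.1% lower, with a median of -0.72. The medians between 10 and 100 CPM (-0.07) and between 100 and 1000 CPM (0.17) lay in between. Those medians kept the same order with library totals only (-1.26, -0.61, -0.38 and -0.08 with rising level), with the upper quartile and with relative log expression. The Δgrf level is itself one side of each fold change, so these values are a description with no test. By the mean of all 7 libraries the lowest and highest classes had medians of -0.81 and 0.63.

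**Figure D2:**
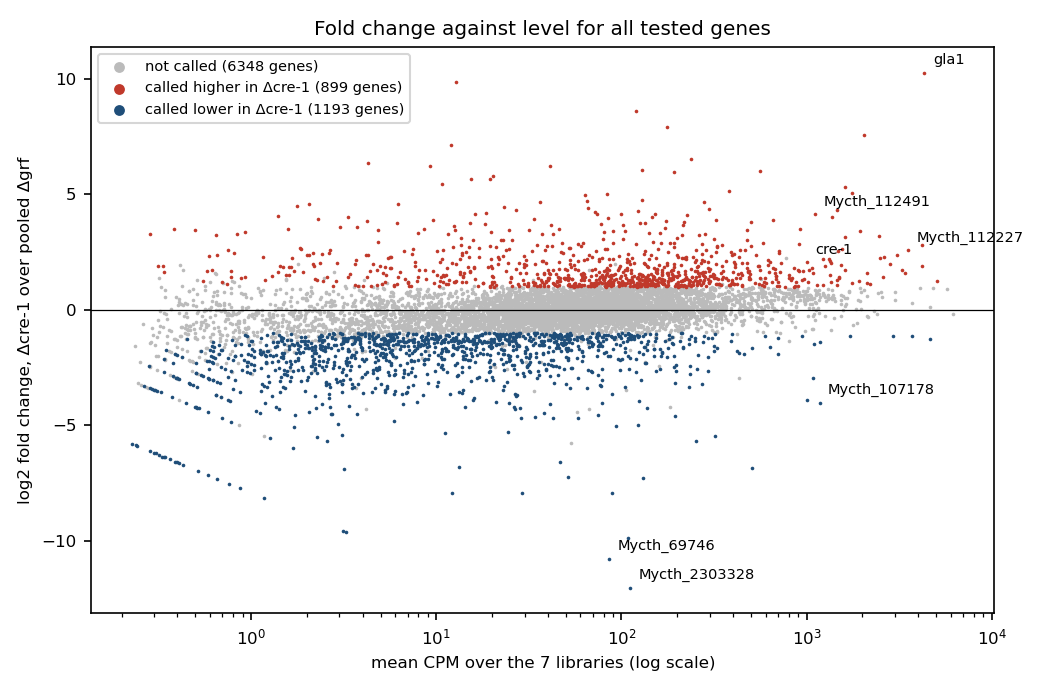
Log2 fold change of Δcre-1 over pooled Δgrf (y axis) against the mean CPM over the 7 libraries (x axis, log scale), with 1 point per tested gene. The 899 genes called higher are drawn in red and the 1193 called lower in blue. gla1 stands apart at the upper right and Mycth_69746 and Mycth_2303328 at the bottom.

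Set against each strain alone, in a fit with 1 coefficient per strain, Δcre-1 had 875 genes higher (10.4%) and 956 lower (11.3%) than Δgrf-1. It had 905 higher (10.7%) and 1024 lower (12.1%) than the Δgrf-2 library, which was assumed to vary like the others. It had 856 higher (10.1%) and 1035 lower (12.3%) than Δgrf-3. The counts of lower genes moved with the libraries kept. Against each Δgrf strain they were smaller with either Δcre-1 library left out, which leaves 1 Δcre-1 library. They were larger with either Δgrf-3 library left out. Without either Δgrf-1 library, 459 and 456 genes were lower than Δgrf-1, and 608 and 609 were lower than Δgrf-2. Among higher genes, those against Δgrf-2 numbered 540 and 533 without either Δcre-1 library, and those against Δgrf-1 numbered 580 without its replicate 1. The 3 comparisons share the same Δcre-1 libraries, so their likeness is no independent evidence.

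The largest rise was that of the glucoamylase gene gla1 (Mycth_72393), whose product frees glucose from starch chain ends. It stood at 15429 and 14771 CPM in the Δcre-1 libraries, against 12 and 13.4 CPM in Δgrf-1, 12.8 CPM in Δgrf-2 and 6.71 and 17 CPM in Δgrf-3. The gene was low in all 5 Δgrf libraries and held the most counts of any gene in Δcre-1, 1.15% of all counts. The log2 fold change was 10.25 ± 0.34 (adjusted p = 3.1e-06), a ratio of means of 1220, and against Δgrf-1, Δgrf-2 and Δgrf-3 by themselves it was 10.23, 10.17 and 10.31. amyR (Mycth_2301920), the orthologue of the starch regulator COL-26 of Neurospora, rose with it: 433 and 440.2 CPM in Δcre-1, against 67.4 to 84.1 CPM in Δgrf (log2 2.52 ± 0.09, adjusted p = 4.0e-06). The other enzymes on the starch list of 4 did not rise. An alpha-glucosidase (Mycth_2087807) fell to 16.9 and 18 CPM in Δcre-1, against 38.0 to 55.4 CPM in Δgrf, and the alpha-glucosidase family protein Mycth_104674 fell by 1.87 on the log2 scale at under 4 CPM in every library, a call that was lost without either Δcre-1 library (adjusted p = 0.096 and 0.081). The bifunctional alpha-glucan enzyme Mycth_108416 had 402 and 413 CPM in Δcre-1 against 705 to 870 CPM in Δgrf (log2 -0.95 ± 0.11), under the fold change asked for.

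Sugar transporters split in both directions. Of 14 listed and tested, 6 rose, 3 fell and 5 were not called, with a median log2 fold change of 0.06 against -0.08 for all genes. The glucose transporter gene Mycth_112491 stood at 3390 and 3406 CPM in Δcre-1, against 265 and 255 CPM in Δgrf-1, 88.5 CPM in Δgrf-2 and 274 and 75.5 CPM in Δgrf-3 (log2 4.15 ± 0.51, adjusted p = 4.8e-04). cdt-2 (Mycth_114107), which encodes a transporter of cellodextrins, the short glucose chains released from cellulose, stood at 208 and 206 CPM in Δcre-1 against 4.15 to 10 CPM in Δgrf (log2 4.96 ± 0.33). Both sets of libraries were far apart at these genes.

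The other rises among the sugar transporters ranged from log2 2.26 to 5.79. Mycth_108044 had 71.1 and 64.2 CPM in Δcre-1, against 0.0932 and 0.0419 CPM in Δgrf-1, 1.83 CPM in Δgrf-2 and 0.373 and 3.66 CPM in Δgrf-3 (log2 5.79 ± 0.97, adjusted p = 0.0019). Mycth_2076976 had 681 and 694 CPM in Δcre-1 against 32.3 to 55.4 CPM in Δgrf (log2 4.10 ± 0.20). Mycth_108924 had 792 and 774 CPM in Δcre-1 against 30.8 to 167 CPM in Δgrf (log2 3.28 ± 0.59). The last of the 6, Mycth_104673, was rare, with 3.69 and 4.00 CPM in Δcre-1 against 0.414 to 1.40 CPM in Δgrf. The 3 that fell were rarer still or small changes: Mycth_103797 (log2 -3.10 ± 1.01), Mycth_2057386 (log2 -2.44 ± 0.58) and Mycth_2060238 (log2 -1.0 ± 0.19), none above 11 CPM in any library. The second glucose transporter that the study names, Mycth_98222, had 2.10 and 2.10 CPM in Δcre-1 against 3.35 to 5.06 CPM in Δgrf and was not called (log2 -0.92 ± 0.25). It was called lower with library totals only (log2 -1.47), with the upper quartile (log2 -1.14) and without both Δgrf-1 libraries (log2 -1.01).

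Beside them, the broader major facilitator superfamily, carriers of many small molecules, had 3 members higher and 5 lower of 19 tested. Mycth_102977 of that family stood at 660.1 and 638 CPM in Δcre-1, against 6.52, 6.54, 16.6, 5.8 and 16.7 CPM in the Δgrf libraries (log2 5.96 ± 0.47, adjusted p = 6.4e-05). Here Δgrf-2 and Δgrf-3 replicate 2 sat together above the other 3 Δgrf libraries, and all 5 were far below Δcre-1. Mycth_2051606 went the other way, with 2.35 and 3.49 CPM in Δcre-1 against 23.2 to 44.5 CPM in Δgrf (log2 -3.67 ± 0.35). Among amino acid permeases, which import amino acids, 3 of 8 tested rose and none was called lower. With the upper quartile or library totals 3 again rose and 1 was called lower. The largest of these rises was Mycth_2089733, with 1992 and 1965 CPM in Δcre-1 against 81.5 to 161 CPM in Δgrf (log2 3.90 ± 0.23). Mycth_2316511 had 641 and 647 CPM in Δcre-1 against 60.4 to 267 CPM in Δgrf (log2 2.41 ± 0.59, adjusted p = 0.011), a call that was lost without Δcre-1 replicate 1 or replicate 2 (adjusted p = 0.053 and 0.054).

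**Figure D3:**
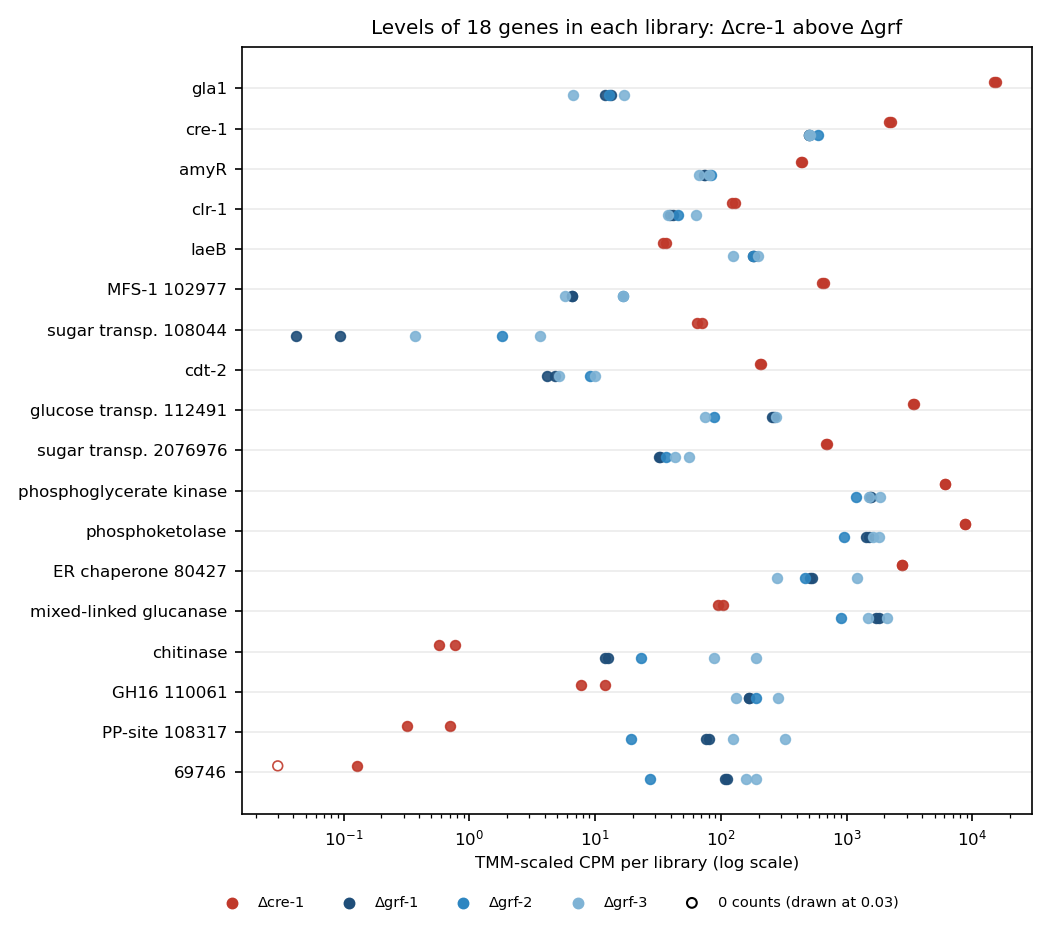
CPM per library (x axis, log scale) of 18 genes named in the text, each with its Δcre-1 libraries in red above its Δgrf libraries in blue; an open circle marks 0 counts. Both Δcre-1 libraries lie outside the range of Δgrf at every gene drawn, from gla1 (15429 and 14771 CPM in Δcre-1, 6.71 to 17 CPM in Δgrf) to Mycth_69746 (0.127 and 0 CPM in Δcre-1, 27.4 to 192 CPM in Δgrf). All 18 are called genes, nearly all of which lack overlap.

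Of the regulators of carbon use and secretion that the study names, 2 of 8 rose and 2 fell. Of these, the study reports laeB, amyR, clr-1, clr-2, xlnR, Mycth_90344 and hac1 for how they stood in ΔlaeA libraries of this series on Avicel. Those libraries are not among the 7 used here. The sugar transporters, phosphoglycerate kinase, permeases and secretion genes that the study names by ID were likewise reported for ΔlaeA libraries. Beside amyR, clr-1 (Mycth_2298863), an activator of cellulase genes in Neurospora, rose to 123 and 129 CPM in Δcre-1, against 37.9 to 63.5 CPM in Δgrf (log2 1.46 ± 0.19, adjusted p = 5.9e-04), although with library totals only its log2 fold change was 0.91. clr-2 (Mycth_38704), which acts with it in Neurospora, had 19.7 and 19.4 CPM in Δcre-1 against 12.6 to 28.5 CPM in Δgrf, and its 95% interval ran from -0.81 to 0.61. xlnR (Mycth_2310145), an activator of xylanase genes, had 34.2 and 34.7 CPM in Δcre-1 against 32.9 to 47.4 CPM in Δgrf, with an interval of -0.49 to 0.27. The groups overlapped at both genes, and with TMM scaling these intervals leave out a change of 2-fold in either direction. Library totals only took the median of the 8 regulators from log2 -0.10 to -0.65. The intervals of clr-2 and xlnR under that scaling are not given here, so a 2-fold fall is not excluded there.

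laeB (Mycth_2295350), which encodes a methyltransferase like the global regulator LaeA, fell to 36.8 and 34.4 CPM in Δcre-1, against 183 and 180.2 CPM in Δgrf-1, 182 CPM in Δgrf-2 and 198 and 125 CPM in Δgrf-3 (log2 -2.29 ± 0.19, adjusted p = 8.3e-05). The transcription factor Mycth_90344, the orthologue of NCU10006 of Neurospora, fell to 8.59 and 5.72 CPM in Δcre-1, against 15.7 to 45.3 CPM in Δgrf (log2 -2.17 ± 0.42). laeA itself (Mycth_2294559) had 9.41 and 9.34 CPM in Δcre-1 against 9.98 to 12.7 CPM in Δgrf and was not called (log2 -0.30 ± 0.15). hac1 (Mycth_2310995), the regulator of the unfolded protein response, had 978 and 964 CPM in Δcre-1 against 521 to 813 CPM in Δgrf (log2 0.57 ± 0.18), below the fold change asked for. Of 19 zinc cluster transcription factors, the large fungal family that includes grf-2, 1 rose and 5 fell, with a median of -0.53. With library totals only, none of the 19 was called higher and 12 were called lower.

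The gluconeogenic genes were not told apart between the strains. pck (Mycth_2315623) encodes phosphoenolpyruvate carboxykinase, the entry enzyme of gluconeogenesis, and had 1181 and 1199 CPM in Δcre-1, against 824 and 810 CPM in Δgrf-1, 646 CPM in Δgrf-2 and 1549 and 520.3 CPM in Δgrf-3. fbp1 (Mycth_2306943) encodes fructose-1,6-bisphosphatase and had 198 and 191 CPM in Δcre-1, against 204, 212, 131, 361 and 95.8 CPM in the Δgrf libraries. At both genes the 2 Δgrf-3 libraries bracketed the Δcre-1 pair. The 95% intervals of the log2 fold change, -0.42 to 1.33 for pck and -1.10 to 1.01 for fbp1, are wide enough to hold a change of 2-fold. Isocitrate lyase (Mycth_110871), the first enzyme of the glyoxylate bypass, had 939 and 922 CPM in Δcre-1 and 221 to 1824 CPM in Δgrf, with the same pattern (log2 0.13 ± 0.67).

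Other genes of central metabolism were called. The phosphoglycerate kinase gene Mycth_2316240, whose product works in both glycolysis and gluconeogenesis, rose to 6020 and 6028 CPM in Δcre-1, against 1527 and 1560 CPM in Δgrf-1, 1185 CPM in Δgrf-2 and 1844 and 1520 CPM in Δgrf-3 (log2 1.98 ± 0.15, adjusted p = 5.9e-05). The phosphoketolase gene Mycth_112227, whose product cleaves xylulose 5-phosphate or fructose 6-phosphate, rose to 8688 and 8717 CPM in Δcre-1, against 947 to 1814 CPM in Δgrf (log2 2.57 ± 0.21). Of the 19 tested genes for alternative carbon sources and fatty acids, which include that gene, 3 rose and 3 fell, beside 10.7% and 14.1% of all genes. The AMP-dependent synthetase Mycth_2097501 rose to 2474 and 2492 CPM in Δcre-1, against 660.5 to 1527 CPM in Δgrf. The alcohol dehydrogenase Mycth_2107104 fell to 6.93 and 6.16 CPM in Δcre-1, against 31.6 to 223 CPM in Δgrf (log2 -4.04 ± 0.82). In the list of glucose breakdown and the pentose phosphate pathway none of 9 rose and 2 fell, both from under 4 CPM in Δgrf, while pyruvate kinase (Mycth_2066697) had 341 and 393 CPM in Δcre-1 against 301.5 to 351 CPM in Δgrf (log2 0.15 ± 0.10).

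Per base of gene, the 5 genes with the most counts in Δcre-1 did not keep the order of their counts. RPKM (counts relative to the library total and to each kilobase of recovered gene length) averaged 8881 in Δcre-1 and 1840 in Δgrf for Mycth_87219, and 5445 in Δcre-1 and 6.55 in Δgrf for gla1. A globin gene (Mycth_112322) averaged 3482 in Δcre-1 and 1372 in Δgrf, Mycth_77354 averaged 3289 in Δcre-1 and 2010 in Δgrf, and the phosphoketolase gene (Mycth_112227) averaged 2070 in Δcre-1 and 507 in Δgrf. All 5 were called higher in Δcre-1, Mycth_77354 with a log2 fold change of 1.26 ± 0.10 that dropped to 0.71 with library totals only and was then not called.

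Enzymes that act on plant polysaccharides did not move as a block. Of 15 tested genes of cellulose-acting enzymes, from a list of 19, 2 rose and 4 fell, with a median of 0.33. The 2 that rose were both lytic polysaccharide monooxygenases, copper enzymes that cut cellulose by oxidation: Mycth_112089, with 14.4 and 14.9 CPM in Δcre-1 against 0 to 0.558 CPM in Δgrf (log2 6.34 ± 0.68), and Mycth_2044732, with 8.65 and 8.95 CPM in Δcre-1 against 0.512 to 0.877 CPM in Δgrf (log2 3.58 ± 0.22). An endoglucanase (Mycth_116157), which cuts within cellulose chains, fell to 11.3 and 10.9 CPM in Δcre-1, against 55.5 to 72.6 CPM in Δgrf (log2 -2.54 ± 0.15, adjusted p = 2.0e-05). A monooxygenase that the list also names with cellobiose dehydrogenase (Mycth_111088) fell by 1.36 on the log2 scale. cbdA (Mycth_111388), the cellobiose dehydrogenase, stood at the threshold (log2 -1.02 ± 0.15) with 6.23 and 7.75 CPM in Δcre-1 against 12.8 to 15.6 CPM in Δgrf. Its call was lost in 9 of the 20 alternatives that tested it. Among them were DESeq2 and relative log expression (log2 -0.99 each) and the spread of all 23 count libraries (adjusted p = 0.27). So were the fits without Δcre-1 replicate 1 (log2 -0.87) and without either Δgrf-3 library (log2 -0.99 and -0.98). Without both Δgrf-3 libraries 5 of the 15 rose and 3 fell. The gene of a Barwin-related endoglucanase (Mycth_2090891) was abundant and not called, with 3527 and 3596 CPM in Δcre-1 against 1523 to 4040.2 CPM in Δgrf.

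Of 18 tested genes for hemicellulose and pectin, 3 rose and 5 fell, beside 10.7% and 14.1% of all genes, while library totals only gave 1 and 8 of the 18, beside 427 and 2482 of all 8440. A polysaccharide lyase of family 3 (Mycth_102322), which cleaves pectin, rose to 36.7 and 36.1 CPM in Δcre-1, against 1.24 to 3.69 CPM in Δgrf (log2 3.65 ± 0.33). A carbohydrate esterase of family 12 (Mycth_2019397) fell to 2 and 5 counts, 0.127 and 0.318 CPM, in Δcre-1, against 3.15 to 5.79 CPM in Δgrf (log2 -4.49 ± 0.47). Of the genes to which the reference gives a symbol, ganA (Mycth_43163), for a galactanase, had 5.28 and 4.76 CPM in Δcre-1 against 2.69 to 4.29 CPM in Δgrf and was not called. phy1 (Mycth_104551), for a phytase, had 99.9 and 92.7 CPM in Δcre-1 against 47.7 to 75.5 CPM in Δgrf (log2 0.76 ± 0.17). lcc1 (Mycth_51627), for a laccase, had 0 and 1 counts in Δcre-1 against 3 to 27 counts in Δgrf, too few for a fold change to be given, and its call as lower was lost without Δcre-1 replicate 1 or replicate 2 (adjusted p = 0.15 and 0.078) and without both Δgrf-3 libraries (adjusted p = 0.064). cat1 (Mycth_80916) rose to 509 and 480.2 CPM in Δcre-1, against 13.1 to 80.9 CPM in Δgrf (log2 3.53 ± 0.55, adjusted p = 0.0014).

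The list of fungal cell wall enzymes held several large falls. Its members were placed there by description, which does not show that each acts on the fungus's own wall. Of 17 tested, from a list of 20, 2 rose and 6 fell, with a median of -0.21. The mixed-linked glucanase gene Mycth_107178 stood at 104 and 94.4 CPM in Δcre-1, against 1816 and 1723 CPM in Δgrf-1, 909 CPM in Δgrf-2 and 2085 and 1488 CPM in Δgrf-3 (log2 -4.02 ± 0.36, adjusted p = 1.2e-04). The family 16 glycoside hydrolase Mycth_110061, a family of beta-glucan enzymes, stood at 12 and 7.68 CPM in Δcre-1 against 132 to 283 CPM in Δgrf (log2 -4.26 ± 0.38). Neither gene had any Δgrf library near the Δcre-1 pair.

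The chitinase gene Mycth_113450 had 0.763 and 0.572 CPM in Δcre-1, against 12.6 and 12 CPM in Δgrf-1, 23.2 CPM in Δgrf-2 and 190.1 and 88.7 CPM in Δgrf-3 (log2 -6.60 ± 1.78, adjusted p = 0.016). Its level varied widely within Δgrf, and the call was lost without Δcre-1 replicate 1 or replicate 2 (adjusted p = 0.097 and 0.10). A chitin-binding module protein (Mycth_110674) fell to 199 and 199.9 CPM in Δcre-1, against 476 to 870 CPM in Δgrf (log2 -1.65 ± 0.26). An exo-beta-1,3-glucanase (Mycth_102522), which trims the main wall glucan from its ends, rose to 119 and 112 CPM in Δcre-1, against 3.27 to 6.67 CPM in Δgrf (log2 4.66 ± 0.25, adjusted p = 1.3e-05). Some wall enzymes that were abundant in both groups moved less. A 1,3-beta-glucan transglucosylase (Mycth_106819) had 6353 and 6158 CPM in Δcre-1 against 2998 to 3535 CPM in Δgrf (log2 0.95 ± 0.11), and the glucan synthase family protein Mycth_140260 had 921 and 944 CPM in Δcre-1 against 723 to 853 CPM in Δgrf (log2 0.25 ± 0.10), neither of which passed the fold change asked for.

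Of 11 tested heat shock proteins and chaperones, 5 rose, 1 fell and 5 were not called, with a median of 0.91, and with library totals only the counts were again 5 and 1 with a median of 0.37. An Hsp70 gene (Mycth_112686) stood at 6346 and 6573 CPM in Δcre-1 against 1417 to 2713 CPM in Δgrf (log2 1.71 ± 0.21), and the chaperonin Cpn60 (Mycth_2097570) at 1419 and 1373 CPM in Δcre-1 against 334 to 571 CPM in Δgrf (log2 1.64 ± 0.20). A DnaJ gene (Mycth_2088056) stood at 99.2 and 92.2 CPM in Δcre-1 against 12.4 to 22.7 CPM in Δgrf (log2 2.58 ± 0.21). The small heat shock gene Mycth_110532 stood at 3170 and 3330 CPM in Δcre-1 against 374 to 1755 CPM in Δgrf, but its call (adjusted p = 0.011) was lost without Δcre-1 replicate 1 or replicate 2 (adjusted p = 0.055 and 0.061) and without both Δgrf-1 libraries (adjusted p = 0.069).

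On the secretory path, 3 of the 9 genes that the study names were called higher and none lower. They are 2 chaperones of the endoplasmic reticulum and a translocation protein that brings proteins into it. The chaperone gene Mycth_80427 had 2775 and 2766 CPM in Δcre-1, against 531 and 508 CPM in Δgrf-1, 465 CPM in Δgrf-2 and 1202 and 281 CPM in Δgrf-3 (log2 2.21 ± 0.45, adjusted p = 0.0049). The chaperone gene Mycth_2300892 (log2 1.38 ± 0.13) and the translocation gene Mycth_2316209 (log2 1.25 ± 0.07) passed as well, but with library totals only they stood at 0.83 and 0.70 and were not called. sec72 (Mycth_2314749) had 684 and 724 CPM in Δcre-1 against 340 to 397 CPM in Δgrf (log2 0.89 ± 0.09), while sec53 (Mycth_2294943) had 149.6 and 154 CPM in Δcre-1 against 222 to 299 CPM in Δgrf (log2 -0.77 ± 0.12). sec53 was called lower with library totals only (log2 -1.31), under which 1 of the 9 genes was called higher and 1 lower.

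Most ribosomal protein genes differed by less than the fold change asked for. Of 21 tested, 19 lay above all 5 Δgrf libraries in both Δcre-1 libraries and 1 below, where 32.3% and 34.4% of all genes did so, but only 1 was called higher and 1 lower. The lower one, the S2 gene Mycth_2060529 (log2 -1.02, adjusted p = 0.028), had under 4 CPM in every library and lost its call in 10 of 19 alternatives, DESeq2 and relative log expression among them, and on leaving out Δcre-1 replicate 1 (adjusted p = 0.20), Δgrf-1 replicate 2 (adjusted p = 0.054), Δgrf-2 (log2 -0.95) or Δgrf-3 replicate 1 (log2 -0.91). The median of the 21 was 0.71 with TMM, 0.49 with the upper quartile and 0.16 with library totals, each above the median of all genes under the same scaling (-0.08, -0.29 and -0.62). Abundant genes stood above that median as well. Under the same 3 scalings, genes with at least 1000 CPM in Δgrf had medians of 0.47, 0.26 and -0.08. Those between 100 and 1000 CPM had 0.17, -0.04 and -0.38. The list was not compared with genes matched for level. Ribosomal protein L2 (Mycth_111425) had 2457 and 2449 CPM in Δcre-1 against 1337 to 1582 CPM in Δgrf (log2 0.81 ± 0.10), and the one called higher was a bacterial-type S12 (Mycth_2096341), with 318 and 325 CPM in Δcre-1 against 113 to 135 CPM in Δgrf, though not with library totals only (log2 0.83). Of 9 tested genes of the respiratory chain and ATP synthase, 3 rose and none fell, with a median of 0.72. They included subunit VIIa of cytochrome c oxidase (Mycth_111770), with 915 and 985 CPM in Δcre-1 against 239 to 375 CPM in Δgrf (log2 1.68 ± 0.15). With library totals only, 1 of the 9 was called higher and 1 lower. None of the 5 histone genes was called, and their median was 0.41 with TMM but -0.14 with library totals only.

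**Figure D4:**
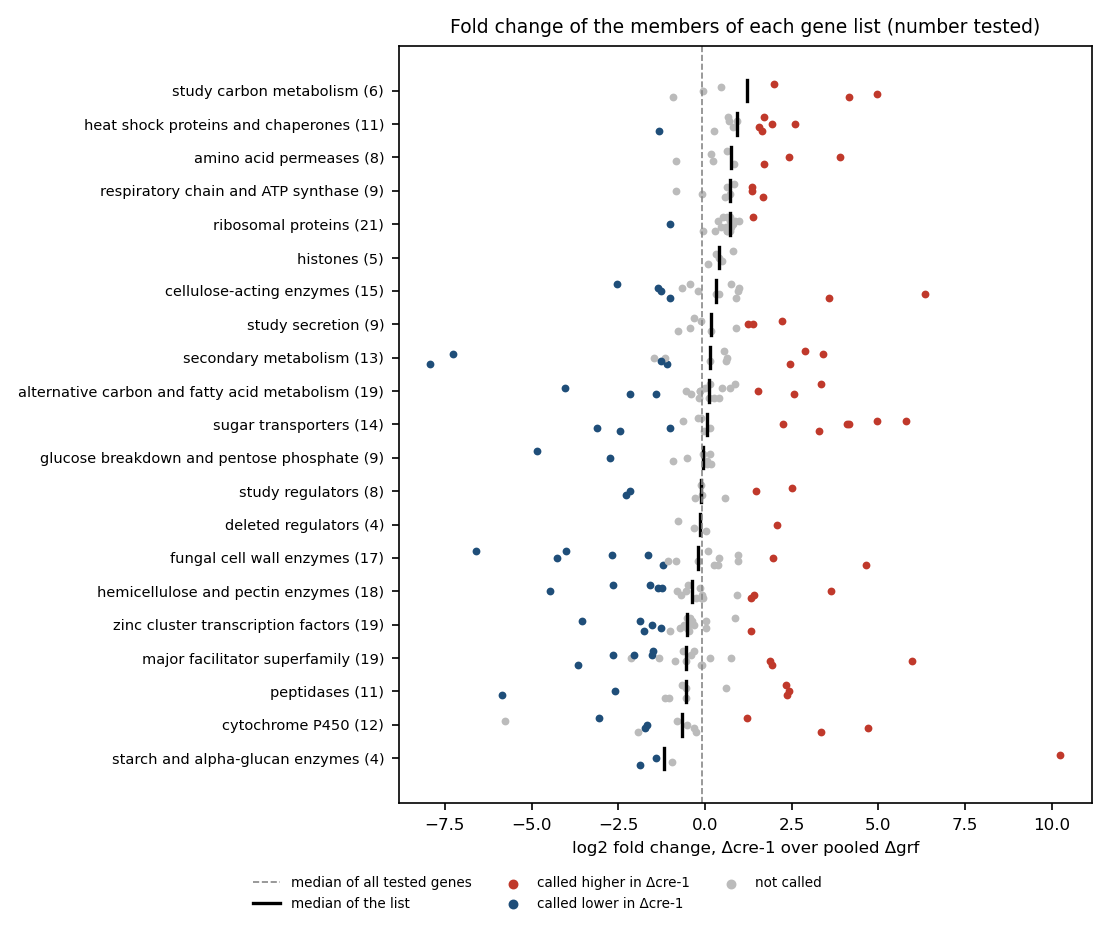
Log2 fold change of Δcre-1 over pooled Δgrf (x axis) for the tested members of each gene list (rows, number tested in brackets), with the list's median as a black bar and the median of all tested genes (-0.08) as a dashed line. Chaperone, permease, respiratory and ribosomal lists have medians between 0.71 and 0.91, while the sugar transporters spread from -3.10 to 5.79 around a median of 0.06.

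Genes of secondary metabolism were called in both directions, 3 higher and 4 lower of 13 tested. A phosphopantetheine attachment site is where synthases of polyketides and non-ribosomal peptides carry the growing product, and 3 genes with that annotation changed strongly. Mycth_108317 had 0.318 and 0.699 CPM in Δcre-1, against 80.5 and 76.0 CPM in Δgrf-1, 19.5 CPM in Δgrf-2 and 125 and 323 CPM in Δgrf-3 (log2 -7.92 ± 1.51, adjusted p = 0.0035). Mycth_115501 went up, with 244.7 and 263 CPM in Δcre-1 against 8.39 and 8.01 CPM in Δgrf-1, 55.9 CPM in Δgrf-2 and 8.07 and 39.7 CPM in Δgrf-3 (log2 3.40 ± 0.79). Mycth_105482 had 1.53 and 0.826 CPM in Δcre-1, against 24.7 and 23.8 CPM in Δgrf-1, 62.8 CPM in Δgrf-2 and 16.9 and 778 CPM in Δgrf-3. That fall (log2 -7.26 ± 2.49, adjusted p = 0.041) was widest against the last of these libraries. Its call was lost without Δcre-1 replicate 1 (log2 -7.77) or replicate 2 (log2 -6.89) and without the Δgrf-2 library (adjusted p = 0.052). It was also lost in the fit with the replicate number as a block (adjusted p = 0.060). DESeq2, with and without the filter of 20 RPKM, gave the gene no adjusted p and so no call (log2 -7.38 and -7.25).

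The gene annotated as an aflatoxin biosynthesis regulatory protein (Mycth_107295) had the tightest of these changes, with 236 and 231 CPM in Δcre-1 against 29.5 to 33.6 CPM in Δgrf (log2 2.87 ± 0.07, adjusted p = 1.3e-06). Cytochrome P450 genes, whose oxidases often serve such pathways, had 3 higher and 3 lower of 12 tested. Mycth_102965 stood at 211 and 206 CPM in Δcre-1 against 5.83 to 10.4 CPM in Δgrf (log2 4.70 ± 0.20), and Mycth_112051 at 54.8 and 55.8 CPM in Δcre-1 against 3.02 to 11.1 CPM in Δgrf (log2 3.35 ± 0.44). The P450 genes that fell did so from under 5 CPM in Δgrf. Of 11 tested peptidase genes 3 rose and 2 fell, and 1 rise, that of a carboxypeptidase gene (Mycth_111035) with 17.8 and 17.5 CPM in Δcre-1 against 0.881 to 9.65 CPM in Δgrf (adjusted p = 0.037), was lost on leaving out any single library but Δgrf-2 (adjusted p = 0.056 to 0.13) and with library totals only (adjusted p = 0.075). The 9 genes annotated as reverse transcriptases were too rare to be tested.

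Several of the large falls lay side by side. In the gene order of the RefSeq annotation of assembly ASM22609v1, skipping genes that were not tested, 30 runs of 4 or more neighbouring genes were called in 1 direction, 3 higher and 27 lower. The longest was a run of 7 genes, all lower in Δcre-1: Mycth_2064854 (a SANT domain protein, a fold found in DNA-binding and chromatin proteins), Mycth_82782, Mycth_11658 (a transferase), Mycth_108317 (annotated above by its phosphopantetheine attachment site only), Mycth_69746, Mycth_82772 and Mycth_108314. Mycth_69746 had 2 and 0 counts in Δcre-1 against 688 to 4636 counts in Δgrf, and the ratio of Δgrf to Δcre-1 was 1883 with a counting interval of 521 to 15550. Mycth_82772 had 3 and 2 counts in Δcre-1 against 696 to 6251 counts in Δgrf, a ratio of 947 (406 to 2918). These intervals are exact binomial ones at 95% over the summed counts and cover counting error only.

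The other genes of the run fell too. Mycth_82782 had 6.55 and 5.59 CPM in Δcre-1, against 838 and 798 CPM in Δgrf-1, 271 CPM in Δgrf-2 and 1452 and 173 CPM in Δgrf-3 (log2 -6.86 ± 1.11, adjusted p = 0.0017). Mycth_11658 had 0.254 and 0.699 CPM in Δcre-1 against 16.7 to 138 CPM in Δgrf (log2 -7.21 ± 1.13), and Mycth_2064854 had 4 and 1 counts in Δcre-1 against 561 to 1709 counts in Δgrf (log2 -7.94 ± 0.78). No Δgrf library overlapped the Δcre-1 pair at any of the 7 genes, and Mycth_108314, the last of the run, changed less, with 11.4 and 9.02 CPM in Δcre-1 against 27.7 to 52.8 CPM in Δgrf (log2 -1.99 ± 0.27). The next gene beyond it, Mycth_2127750, had 11.6 and 13.1 CPM in Δcre-1 against 8.68 to 10.4 CPM in Δgrf. At the other end the neighbour Mycth_2306185 went the opposite way, with 156 and 166 CPM in Δcre-1 against 13.2 to 53.8 CPM in Δgrf (log2 2.30 ± 0.45, adjusted p = 0.0040). Other genes near the run were called lower too, by less: Mycth_2306182 (log2 -1.91) before it, and Mycth_2306196 (log2 -1.44), Mycth_2306198 (log2 -1.14) and Mycth_2127753 (log2 -2.75) after it. The longest run under each alternative held at least 7 genes, but it was counted at any place and in either direction, so that length does not follow this run. All 7 genes of this run stayed lower in Δcre-1 under each of the 21 alternatives, the smallest fall being log2 -1.83 (Mycth_108314). The number of lower runs was unstable: the 27 became fewer without either Δcre-1 library and 99 with library totals only.

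**Figure D5:**
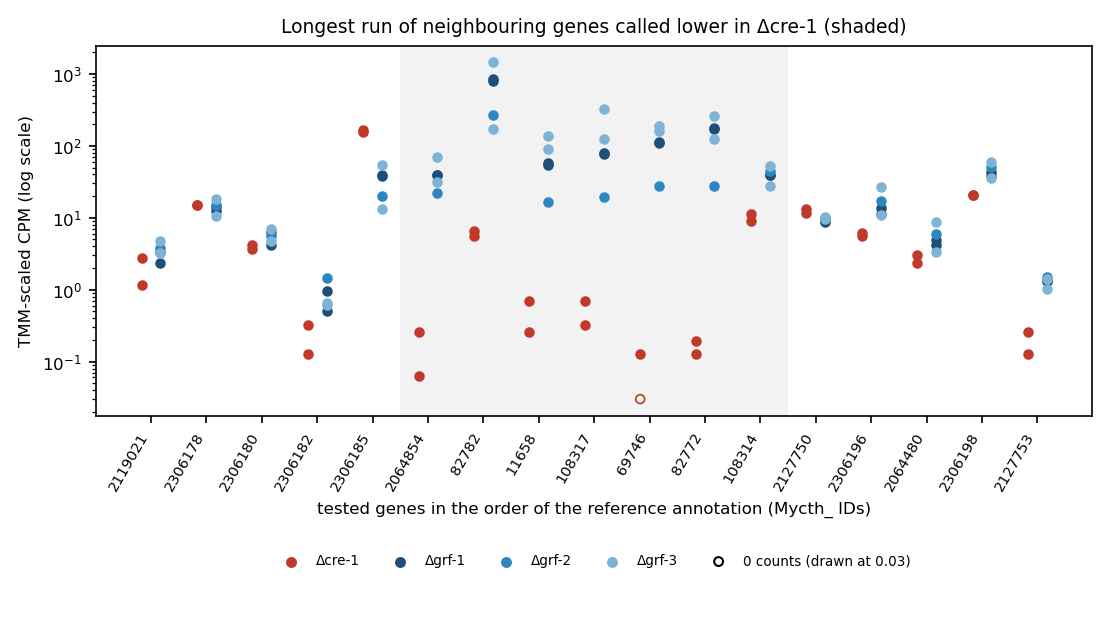
CPM per library (y axis, log scale) at 17 tested genes in annotation order (x axis), with the run of 7 genes called lower shaded and 5 tested neighbours on each side; Δcre-1 in red stands left of Δgrf in blue, and an open circle marks 0 counts. Inside the run Δcre-1 falls to between 0 and 11.4 CPM while Δgrf holds 16.7 to 1452 CPM, and of the neighbours Mycth_2306185 is higher in Δcre-1 (156 and 166 CPM, against 13.2 to 53.8 CPM in Δgrf).

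Other runs were shorter. The family 16 hydrolase Mycth_110061 sat in a run of 5 with its neighbour Mycth_2311126, which had 4.58 and 3.37 CPM in Δcre-1 against 79.5 to 207 CPM in Δgrf (log2 -5.03 ± 0.48). Of the 3 runs called higher, 1 held Mycth_2068307, with 35.0 and 36.2 CPM in Δcre-1 against 0.168 to 1.52 CPM in Δgrf (log2 5.43 ± 0.47), and another held Mycth_2312118, with 159 and 165 CPM in Δcre-1 against 7.08 to 39.0 CPM in Δgrf (log2 2.87 ± 0.49). The files and the reference give no product for these 3 neighbours.

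Among genes with no annotation here, the widest contrasts were close to on and off. Mycth_2127519 had 692 and 711 counts in Δcre-1 against 3, 0, 2, 0 and 0 counts in the Δgrf libraries, a ratio of 1060 with a counting interval of 453 to 3269. Mycth_2309773 had 398 and 435 CPM in Δcre-1 against 0.326, 0.210, 2.63, 0.166 and 1.98 CPM in the Δgrf libraries (log2 8.59 ± 0.81). In the opposite direction Mycth_2303328 had 1 and 0 counts in Δcre-1, against 212 and 241 counts in Δgrf-1, 1771 in Δgrf-2 and 566 and 16132 in Δgrf-3, a ratio of Δgrf to Δcre-1 of 5011 with a counting interval of 899 to 197900. Its level was spread widely within Δgrf. Its call (adjusted p = 0.032) was lost without Δcre-1 replicate 1 or replicate 2, and in DESeq2, which gave it no adjusted p. No Δgrf library came near the Δcre-1 pair at these 3 genes, but a lack of overlap was a condition for naming them.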

How the data were processed

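RNA-seq counts per gene were deposited as whole numbers, made by the authors with TopHat2 2.0.8b and HTSeq 0.5.4p2 according to the submitters' processing notes, while the study's methods name another HTSeq version. The reads were mapped to the genome of the species per those methods; the assembly version and the strand setting of the counting are not stated there. The table holds 9110 genes, and 2 lines without a gene name were left out. One deposited column, headed for replicate 1 of Δgrf-2, holds RPKM instead of counts, so it entered no comparison. Its values equalled the mean share of the 2 Δgrf-1 libraries over a whole-number length at 8865 of 8865 genes (100%, tolerance 0.01), and it served only to recover gene lengths.

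The 7 libraries were fitted in edgeR 4.0.16 (R 4.3.3, limma 3.58.1) with filterByExpr, TMM scaling, Δcre-1 against pooled Δgrf without a block and a robust quasi-likelihood test with 5 residual degrees of freedom, which left 8440 genes. CPM are TMM-scaled, SE is the log2 fold change over the root of F, and p-values were adjusted by Benjamini-Hochberg over all genes tested. Alternatives were DESeq2 1.42.0, other scalings, filters and groupings, the spread of all 23 count libraries, a replicate block and libraries left out. On simulated data of 8440 genes for this comparison, 37 of 100 genes changed 2-fold and 92 of 100 changed 4-fold were called, with 2 unchanged genes called. Of those changed 2-fold, 57 passed the adjusted p, the change itself being at the fold threshold. The simulation drew all 5 Δgrf libraries around 1 mean per gene, with as many genes up as down. It held no strain differences and no split Δgrf-3 pair, so its false calls do not carry over to these data.

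Gene lists came from the study's text and from the descriptions of 865 genes in the readable part of a shortened table, so they hold described genes only. The genes named are those the study names by ID, those with a symbol, the largest rises and falls without overlap where the higher group averaged 10 CPM or more, up to 4 called members of a list, the largest member of each run and the 5 genes with the most counts. Uncalled members named beside them, and neighbours of runs, were chosen after their values were seen. The comparison, lists and rules were chosen with earlier results of these data known. Symbols and gene order are from ASM22609v1 (9087 genes matched), and figures were drawn with matplotlib 3.10.9 (Python 3.11.15).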

Additional observations from a re-analysis of the deposited data

Results flagged for a closer look

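Among 134 named genes, 18 had 1 outlying Δgrf library. Its gap to its nearest neighbour was over 0.71 of the whole range of the 5 Δgrf libraries (Dixon's ratio). That limit is passed in about 1 in 20 groups of 5 independent draws from 1 normal distribution. The 5 libraries come from different strains and many of the genes were picked by their changes, so that rate is no expectation here. The Δcre-1 pair is too small for the same check. The outlying library was Δgrf-3 replicate 1 at 6 genes, Δgrf-2 at 7, Δgrf-3 replicate 2 at 4 and Δgrf-1 replicate 2 at 1.

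Δgrf-3 replicate 1 was the highest for Mycth_87219 (ratio 0.908), the chaperone genes Mycth_2300892 (0.798) and Mycth_80427 (0.729), the small heat shock gene Mycth_110532 (0.74) and phy1 (Mycth_104551, 0.735), and the lowest for grf-2 (Mycth_2089183, 0.875). Δgrf-2 was the highest for cre-1 (Mycth_2310085, 0.835), Mycth_112089 (0.775), Mycth_111035 (0.753), the P450 gene Mycth_112051 (0.739) and Mycth_2308852 (0.72), and the lowest for sec72 (Mycth_2314749, 0.774) and Mycth_2019397 (0.767). Δgrf-3 replicate 2 was the highest for Mycth_105482 (0.94), Mycth_2303328 (0.907) and Mycth_2060942 (0.814), and the lowest for laeB (Mycth_2295350, 0.76). Δgrf-1 replicate 2 was the highest for Mycth_53033 (0.726).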

How the results depend on the processing

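Of 112 named genes called, 70 were called under each of the 21 alternatives that tested them. With library totals only, 427 genes were higher and 2482 lower than pooled Δgrf, 452 and 2289 than Δgrf-1, 411 and 2417 than Δgrf-2, and 403 and 2308 than Δgrf-3, and the uncalled log2 fold changes of Mycth_2089183 (-0.52), Mycth_2312007 (-0.38) and Mycth_2055845 (-0.30) turned negative, since that scaling moves all genes down. At least 10 CPM in 2 libraries left 759 lower genes. DESeq2 with at least 20 RPKM in 1 library left 585 lower than pooled Δgrf, 521 than Δgrf-1, 632 than Δgrf-2 and 611 than Δgrf-3; both filters test fewer genes. By adjusted p alone, 2247 genes were higher and 2345 lower than pooled Δgrf, 1984 and 1866 than Δgrf-1, 1687 and 1627 than Δgrf-2, and 1984 and 1894 than Δgrf-3. Without both Δgrf-1 libraries 603 genes were lower than Δgrf-2; the cause was not tested. Leaving out 1 library at a time gave 815 to 988 higher and 802 to 1222 lower than pooled Δgrf, 580 to 1017 and 446 to 1250 than Δgrf-1, 533 to 1117 and 387 to 1426 than Δgrf-2, and 619 to 1177 and 464 to 1288 than Δgrf-3. With Δgrf-1 alone as the reference, chosen after seeing the data, 970 genes were higher and 1204 lower (1881 of the calls were kept), and grf-3 (Mycth_2309668) turned to 0.22. With the replicate block 909 genes were higher and 1157 lower; same-numbered libraries did not deviate together (r = -0.02, -0.02 and 0.0036 across genes), so the numbers were not taken to pair them.

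Limits are the 2 Δcre-1 libraries, the levels of the targeted genes against their labels, the split Δgrf-3 pair, the lack of a wild type, and the scaling, which sets the balance of directions. At 0.120 to 0.191 CPM for 3 counts, differences among rarer transcripts were not detectable at this depth.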
